A study of Mus musculus with 48 samples.

Results

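The 40 genes described here encode proteins of DNA replication and of the cell division cycle, measured in liver by RNA sequencing. They were the rows of the deposited count table whose symbol was on a list of 40 such genes and whose mean over the 48 libraries was at least 0.1 CPM (read counts scaled to the library total), and all 40 met this rule, out of 22354 genes in the table. By role they are 7 cyclins and cyclin-dependent kinases (CDKs) of G1 and S phase, 2 E2F factors, 3 origin licensing genes, the 6 subunit genes of the MCM helicase, 5 replication fork genes, 4 genes of nucleotide supply and 13 mitotic genes. Of the 40, 36 passed a filter on low counts and were tested among 13646 genes. The licensing gene Cdc6 and the mitotic genes Aurkb, Plk1 and Bub1 did not pass it.

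KO livers came from mice with floxed Bmal1 alleles (fx/fx) and aP2-Cre, a Cre recombinase driven by aP2, and WT livers came from littermate controls, whose alleles are not spelled out in the labels. Bmal1, whose gene symbol is Arntl, is a core activator of the circadian clock, and the aP2 promoter is used to drive Cre in fat cells. All mice were of the C57BL/6 strain and 4 to 6 months old, spent 36 h in constant darkness and were killed in the dark at 0, 4, 8, 12, 16 or 20 h of the collection. Each genotype had 4 mice at each time, except 16 h with 3 KO and 5 WT mice, which makes 23 KO and 25 WT libraries, each from a separate mouse. The design text instead gives 4 mice for every genotype at every time, so this text and the labels differ at 16 h, which was not resolved here, and the labels were followed.

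A dividing cell first passes from G1 into S phase when D- and E-type cyclins activate their CDKs, which frees E2F factors to switch on the genes of DNA synthesis. Licensing factors load the MCM helicase onto origins, the fork machinery copies the DNA from deoxynucleotides made by ribonucleotide reductase and thymidylate synthase, and a later wave of genes under the DREAM and B-MYB complexes builds the mitotic apparatus. Hepatocytes of an adult liver are almost all at rest and re-enter this cycle after tissue loss, so low transcript levels of mitotic genes are the usual state of the organ.

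Library totals without the albumin gene Alb lay between 12841969 and 13009797 counts, and the scaling factors between 0.892 and 1.11. Summed levels of 7 hepatocyte markers were 10634 to 42986 CPM in KO livers and 15035 to 38377 CPM in WT livers. The labels give liver as tissue and adipocyte as cell type. The mice are described as male, yet Xist had 3029 to 13969 counts in every library, while no library had more than 1 count of the Y chromosome genes Eif2s3y, Kdm5d or Uty. Arntl itself, the targeted gene, had 1.58 to 37.0 CPM in KO and 0.819 to 43.8 CPM in WT livers and differed by 0.30 ± 0.16 across times (log2 KO minus WT ± SE, adjusted p = 0.347), so it gave no sign of a loss in the livers called KO. This average holds opposite signs, with −1.14 ± 0.39 at 4 h (adjusted p = 0.132) and 1.65 ± 0.43 at 12 h (adjusted p = 0.498), and the change with time had an unadjusted p of 0.000529 (adjusted p = 0.509). The p-values below weigh a difference or a rhythm against the spread between mice, which the main tests estimated over all 48 libraries together.

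Across the 6 collection times, Rrm2 fell and E2f6 rose in KO livers, and the other 34 tested genes did not pass the threshold. Rrm2 encodes the small subunit of ribonucleotide reductase, the enzyme that turns ribonucleotides into deoxynucleotides, and had a log2 difference of −0.91 ± 0.16 (KO minus WT ± SE, edgeR's quasi-likelihood test, adjusted p = 0.00146). E2f6, a repressor of the E2F family that lacks the domain for RB binding and transcription activation, had a difference of 0.44 ± 0.08 (adjusted p = 0.000899). These are 2 of 36 genes (5.56%), against 1.4% of all 13646 genes tested (191 genes), of which 0.623% were higher and 0.777% lower in KO livers. In whole tissue, fewer cells of a type and less RNA per cell cannot be told apart. Leaving out the library of KO replicate 1 at 4 h added 2 genes to the calls, Lig1 (adjusted p = 0.0446) and Pole (adjusted p = 0.0487), while the calls among all genes became 484 in place of 191.

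Of the 36 tested genes, 30 had a negative log2 difference (83.3%), against 51.1% of all genes, and their median was −0.14, against −0.005 over all genes. At an unadjusted p below 0.05 there were 6 of 36 (16.7%), which is close to the 17.1% of all genes. The 6 were Rrm2, E2f6, Pole, Lig1, Birc5 and Ccne1. Leaving out each library in turn gave counts of 5 to 11. The highest came only without KO replicate 1 at 20 h, with 11 of 34 tested genes (32.4%), against 19.9% of all genes. The plot of log2 differences by role gives each tested gene with its SE.

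**Figure D1:**
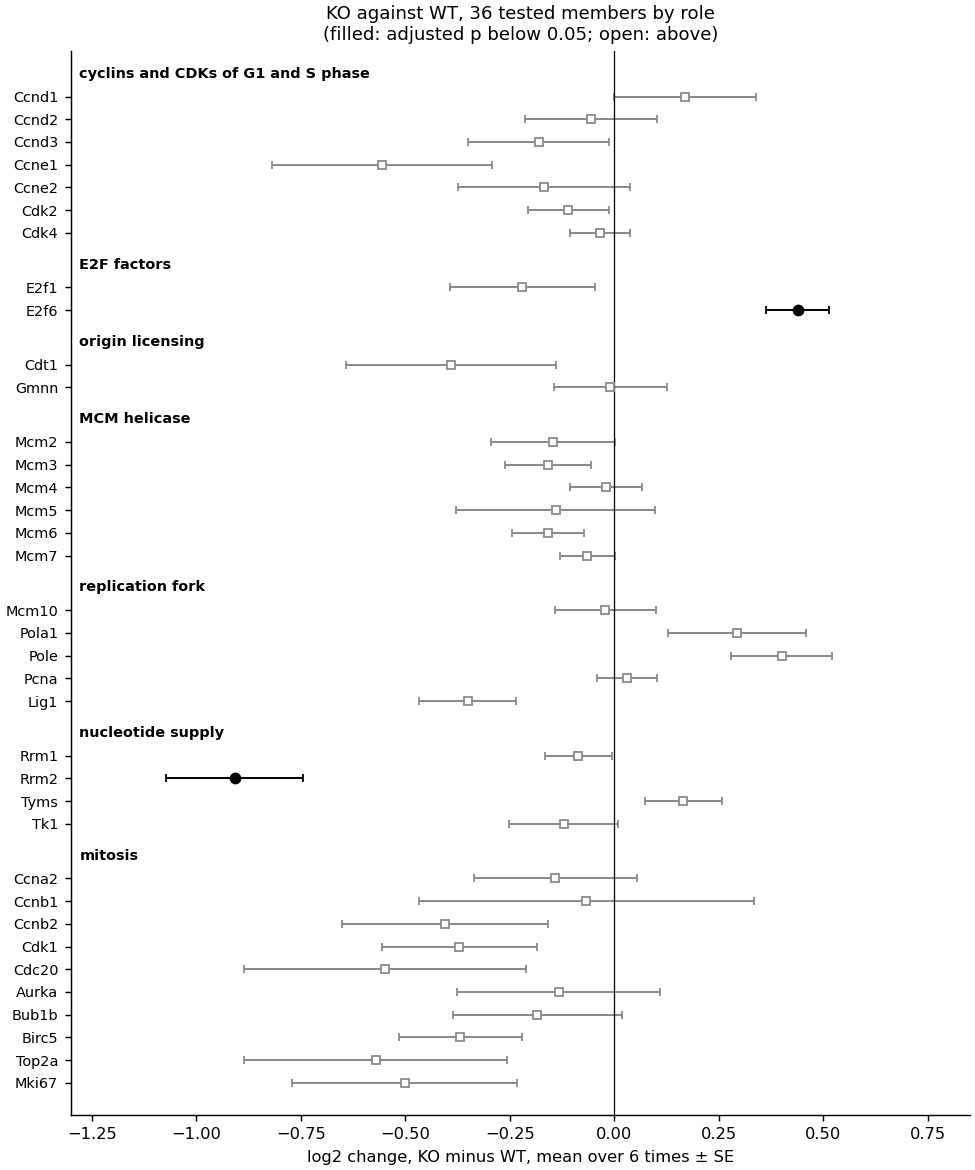
Log2 difference between KO and WT livers across the 6 times for the 36 tested genes, grouped by role, with bars of ± 1 SE and filled points for an adjusted p below 0.05. Rrm2 at −0.91 and E2f6 at 0.44 are the filled points, and all 10 tested mitotic genes lie below 0.

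Rrm2 lies at chr12:25393106-25399011 in mm9 (ENSMUSG00000020649). Its promoter is shown because Rrm2 had the largest difference of the set. The sequence is the RefSeq window of GRCm38.p6, chr12:24708004-24708303 on the + strand, from 250 bases before to 50 bases after the transcript start, with 1 E2F match and 1 CCAAT box in capitals.
Rrm2 promoter: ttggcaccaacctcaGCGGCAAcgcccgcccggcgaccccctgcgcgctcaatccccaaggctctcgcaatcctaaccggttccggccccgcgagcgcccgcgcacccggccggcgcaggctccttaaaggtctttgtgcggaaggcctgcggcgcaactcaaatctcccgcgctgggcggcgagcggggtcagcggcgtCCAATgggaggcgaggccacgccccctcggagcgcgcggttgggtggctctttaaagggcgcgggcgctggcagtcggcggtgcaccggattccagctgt

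Over all times Rrm2 had 1.33 CPM in the lowest, 3.09 in the median and 7.74 in the highest KO library, against 2.25, 7.33 and 12.5 CPM in WT libraries. The means were 3.42 CPM in KO and 6.73 CPM in WT livers, and the group means were lower in KO at 6 of 6 times. At 0 h Rrm2 had 3.52, 3.42, 2.21 and 2.57 CPM in KO livers, against 5.12, 12.3, 4.65 and 4.25 CPM in WT livers. The groups did not overlap at this time, and WT replicate 2 stood far above the other WT mice. At 4 h the values were 2.26, 4.43, 1.64 and 3.09 CPM in KO livers, against 3.45, 8.86, 2.84 and 3.44 CPM in WT livers. At 8 h they were 3.41, 1.33, 2.34 and 4.2 CPM in KO livers, against 3.72, 7.92, 2.25 and 4.11 CPM in WT livers. The groups overlapped at both of these times, and WT replicate 2 was again the highest library. At 12 h KO livers had 5.27, 2.92, 2.26 and 2.18 CPM, against 7.53, 10.0, 7.33 and 5.16 CPM in WT livers. At 16 h KO livers had 3.79, 6.43 and 2.86 CPM, against 12.5, 8.87, 8.85, 11 and 7.52 CPM in WT livers. Every WT value lay above every KO value at 16 h, while at 12 h only the highest KO mouse exceeded the lowest WT mouse. At 20 h KO livers had 7.74, 3.08, 3.71 and 4.07 CPM, against 7.45, 5.27, 8.06 and 5.80 CPM in WT livers. The groups overlapped through KO replicate 1. WT replicate 2 was the highest library at 12 h too, but not at 16 h or 20 h. The difference ranged over the times between −1.25 ± 0.40 at 12 h and −0.52 ± 0.39 at 20 h, and its change with time was not significant (interaction, adjusted p = 0.953). Over 56 alternatives in processing, the difference of Rrm2 across times stayed between −1.01 and −0.82, with adjusted p between 1.41e-05 and 0.0121.

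E2f6 lies at chr12:16817771-16833549 in mm9 (ENSMUSG00000057469). Its promoter, shown as that of the gene that rose, is the RefSeq window chr12:16810715-16811014 of GRCm38.p6 on the + strand and held none of the 4 motifs searched, so that it has no capitals.
E2f6 promoter: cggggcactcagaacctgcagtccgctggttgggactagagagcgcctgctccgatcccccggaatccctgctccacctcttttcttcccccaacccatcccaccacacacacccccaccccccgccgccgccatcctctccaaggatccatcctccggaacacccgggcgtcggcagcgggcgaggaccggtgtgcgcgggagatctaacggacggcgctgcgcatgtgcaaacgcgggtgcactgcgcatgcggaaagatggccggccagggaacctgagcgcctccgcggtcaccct

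Over all times E2f6 had 11.4 CPM in the lowest, 14.9 in the median and 22.6 in the highest KO library, against 7.64, 11.2 and 17.3 CPM in WT libraries. The means were 15.5 CPM in KO and 11.5 CPM in WT livers, and KO means were higher at 6 of 6 times. At 0 h E2f6 had 22.6, 18, 13.5 and 19.7 CPM in KO livers, against 11.2, 11.2, 13.5 and 9 CPM in WT livers. KO replicate 3 and WT replicate 3 met at this time, and all other KO mice were above all WT mice. At 4 h KO livers had 12.9, 14.8, 15.4 and 13.6 CPM, against 10.7, 7.64, 11.3 and 10.2 CPM in WT livers. At 12 h KO livers had 13.2, 14.7, 14.2 and 15.3 CPM, against 10.5, 9.36, 11.3 and 7.82 CPM in WT livers. The groups did not overlap at 4 h or at 12 h. At 8 h KO livers had 11.4, 13.1, 14.9 and 15.2 CPM, against 11.2, 9.10, 12.3 and 9.82 CPM in WT livers. At 16 h KO livers had 15.1, 18.3 and 11.8 CPM, against 11.3, 14.6, 9.07, 12.4 and 17.3 CPM in WT livers. At 20 h KO livers had 19.0, 15.2, 20.7 and 13.1 CPM, against 12.8, 16.0, 16.7 and 11.3 CPM in WT livers. The groups overlapped at these 3 times. The largest difference was 0.72 ± 0.19 at 0 h, and the smallest was 0.22 ± 0.19 at 16 h. Over the 56 alternatives, E2f6 stayed between 0.41 and 0.48, with adjusted p between 1.39e-05 and 0.0036. E2f1, the activating member of the family that is itself induced at S phase entry, had −0.22 ± 0.17 (adjusted p = 0.5).

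**Figure D2:**
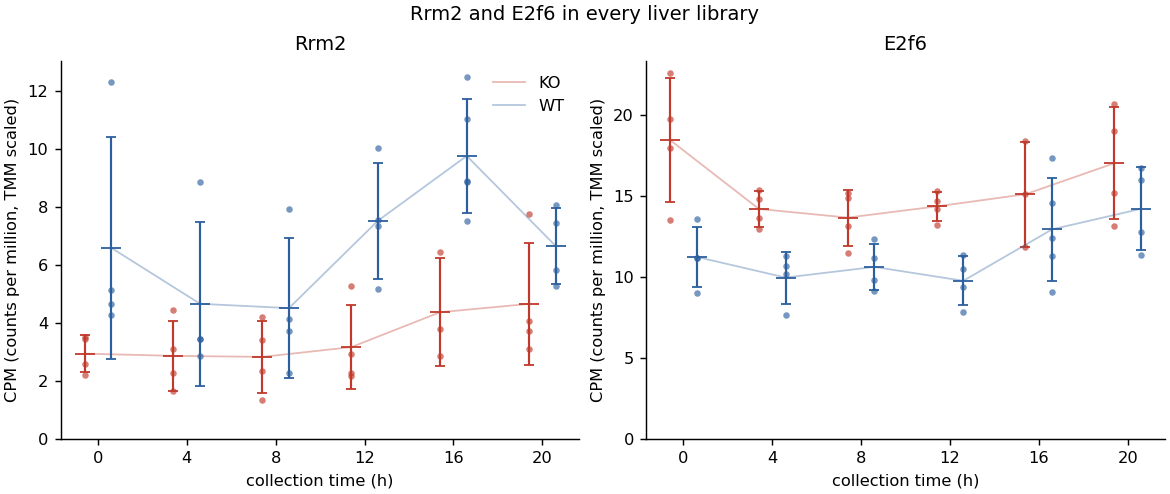
CPM of Rrm2 and E2f6 in each library by collection time, KO left of WT, with points for mice and bars for mean ± SD. Rrm2 means are lower and E2f6 means higher in KO livers at all 6 times, and the Rrm2 groups do not overlap at 0 h and 16 h.

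The other nucleotide supply genes did not pass the threshold across times. Rrm1, the large subunit that pairs with the Rrm2 protein, had 9.75 CPM in KO and 10.2 CPM in WT livers on average, a difference of −0.09 ± 0.08 (adjusted p = 0.568). Tyms, which makes thymidylate, had 0.17 ± 0.09 (adjusted p = 0.353). Tk1, the thymidine salvage kinase of S phase, had −0.12 ± 0.13 (adjusted p = 0.615). The reductase subunits thus had unequal differences in the same libraries, and the difference between them was not tested.

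Among the 7 cyclins and CDKs of G1 and S phase, 6 had a negative difference, the median was −0.11 and none passed. Ccne1, a cyclin that activates CDK2 at the start of S phase, had the lowest value. Its level was 0.0806, 0.376 and 1.21 CPM in the lowest, median and highest KO library, against 0.144, 0.564 and 2.46 CPM in WT libraries. These ranges overlap, and the difference was −0.56 ± 0.26 (adjusted p = 0.274). Ccne2, the other E-type cyclin gene of the set, had −0.17 ± 0.21, the kinase Cdk2 had −0.11 ± 0.10 and the kinase Cdk4 had −0.03 ± 0.07. The D-type cyclins, which link growth signals to CDK4, had 0.17 ± 0.17 for Ccnd1, −0.06 ± 0.16 for Ccnd2 and −0.18 ± 0.17 for Ccnd3. All 7 had an adjusted p of at least 0.274.

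Of the licensing genes, Cdt1, which brings the helicase to origins, had −0.39 ± 0.25 (adjusted p = 0.417), and its inhibitor Gmnn had −0.01 ± 0.14 (adjusted p = 0.977). Cdc6, a loading factor with 0.224 CPM in KO and 0.255 CPM in WT livers, had −0.14 ± 0.33 under a wider filter of 15544 genes (adjusted p = 0.846).

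All 6 MCM helicase genes had a negative difference, but a small one, between −0.16 and −0.02 with a median of −0.14, and none passed across times. Mcm6 had −0.16 ± 0.09 (adjusted p = 0.346), and Mcm4 had −0.02 ± 0.09 (adjusted p = 0.921). At 0 h, however, Mcm3 and Mcm6 did not overlap between the genotypes. Mcm3 then had 3.15, 3.27, 3.36 and 3.9 CPM in KO livers, against 5.91, 5.05, 5.51 and 4.32 CPM in WT livers. Mcm6 had 1.72, 2.82, 3.05 and 3.12 CPM in KO livers, against 4.41, 4.73, 4.80 and 4.25 CPM in WT livers. Every WT value exceeded every KO value for both subunits, with differences of −0.60 ± 0.25 for Mcm3 and −0.76 ± 0.21 for Mcm6 that did not pass the adjusted threshold (adjusted p = 0.686 and 0.336). The summed level of the 6 genes at 0 h was 35.0 ± 3.5 CPM in KO and 43.2 ± 2.7 CPM in WT livers (SD, n = 4 each), with 31.7 to 39.0 CPM in KO and 39.5 to 45.6 CPM in WT mice. At 20 h the sum was 39.8 ± 4.9 CPM in KO and 35.5 ± 2.3 CPM in WT livers (SD, n = 4 each). Mcm7 holds most of the reads of this sum.

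The Mcm6 promoter is shown as that of the helicase gene with the lowest p across times. It is the RefSeq window chr1:128359656-128359955 of GRCm38.p6 on the − strand, written in the direction of the gene. Its capitals mark 5 E2F matches, 2 pairs of which overlap, and 2 CCAAT boxes.
Mcm6 promoter: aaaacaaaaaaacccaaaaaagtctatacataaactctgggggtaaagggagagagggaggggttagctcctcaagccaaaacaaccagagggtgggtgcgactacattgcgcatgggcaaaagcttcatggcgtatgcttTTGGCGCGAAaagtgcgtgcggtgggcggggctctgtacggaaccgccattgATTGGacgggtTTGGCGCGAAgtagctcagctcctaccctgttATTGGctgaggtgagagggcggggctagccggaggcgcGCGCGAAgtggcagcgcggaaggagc

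The 5 replication fork genes had differences in both directions, with a median of 0.03, and none passed. Lig1, the ligase that joins Okazaki fragments, had 2.84 CPM in KO and 3.63 CPM in WT livers, a difference of −0.35 ± 0.12 (adjusted p = 0.116) that was negative at 6 of 6 times. At 0 h Lig1 had 2.4, 2.21, 2.97 and 3.51 CPM in KO livers, against 4.41, 3.67, 4.49 and 4.32 CPM in WT livers, with no overlap. In unscaled counts, however, the highest KO and the lowest WT mouse tied at 45. Pole, the catalytic subunit of the leading strand polymerase, had 1.47 CPM in KO and 1.12 CPM in WT livers, a difference of 0.40 ± 0.12 (adjusted p = 0.0828) that was negative at none of the 6 times. At 8 h Pole had 1.63, 1.91, 2.42 and 1.35 CPM in KO livers, against 0.968, 0.627, 1.27 and 1.18 CPM in WT livers, again with no overlap. Here too the lowest KO and the highest WT mouse tied in unscaled counts, at 18. Lig1 and Pole thus lay on opposite sides of 0. Pola1, the catalytic subunit of the polymerase that extends RNA primers, had 0.29 ± 0.17 (adjusted p = 0.358), Pcna, the sliding clamp, had 0.03 ± 0.07 (adjusted p = 0.835), and Mcm10, a helicase activator, had −0.02 ± 0.12 (adjusted p = 0.939).

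Lig1 has 3 starts in the RefSeq table, and its promoter is shown for the low p of the gene. The window with the most E2F matches, picked for them, is chr7:13278576-13278875 of GRCm38.p6 on the + strand and holds 2 in capitals, both after the start.
Lig1 promoter: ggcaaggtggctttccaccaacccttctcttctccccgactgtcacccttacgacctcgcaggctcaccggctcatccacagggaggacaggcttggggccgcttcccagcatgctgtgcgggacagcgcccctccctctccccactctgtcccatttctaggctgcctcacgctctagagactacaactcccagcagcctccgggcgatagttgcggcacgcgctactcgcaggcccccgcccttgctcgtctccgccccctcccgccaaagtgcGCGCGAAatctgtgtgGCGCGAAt

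All 10 tested mitotic genes had a negative difference across times, between −0.57 and −0.07 with a median of −0.37, and none passed the threshold in edgeR or DESeq2. At an unadjusted p below 0.05 there was 1, Birc5. Birc5, which encodes survivin of the chromosomal passenger complex, had the lowest p. It had 0.228, 1.70 and 3.59 CPM in the lowest, median and highest KO library, against 0.709, 1.99 and 4.08 CPM in WT libraries. Its difference was −0.37 ± 0.15 (adjusted p = 0.197), negative at 6 of 6 times, and the ranges overlap. Top2a, the topoisomerase that untangles sister chromatids, had −0.57 ± 0.31 (adjusted p = 0.35). Mki67, the coat protein of mitotic chromosomes used as a proliferation marker, had −0.50 ± 0.27 (adjusted p = 0.335), and Cdk1, the mitotic kinase, had −0.37 ± 0.19 (adjusted p = 0.299). Its cyclin partners had −0.14 ± 0.20 for Ccna2, −0.07 ± 0.40 for Ccnb1 and −0.41 ± 0.25 for Ccnb2. Cdc20, an activator of the anaphase-promoting complex, had −0.55 ± 0.34, the spindle kinase Aurka had −0.13 ± 0.24 and the checkpoint kinase Bub1b had −0.18 ± 0.20. Under the wider filter, Aurkb, the kinase partner of survivin, had 0.18 ± 0.39, the mitotic kinase Plk1 −0.39 ± 0.24 and the checkpoint kinase Bub1 −0.47 ± 0.42, with adjusted p of at least 0.424. Bub1 had 71 counts in all 48 libraries together, and the SE of its difference is wide.

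The mitotic genes were low in most mice and high in a few, and the 3 highest also carried many transcripts of blood cells. The summed level of the 13 genes was highest in KO replicate 1 at 20 h, with 27.9 CPM. WT replicate 5 at 16 h had 25.6 CPM, and WT replicate 3 at 0 h had 23.1 CPM. The sum of 10 granulocyte markers was 626 CPM in that KO mouse and 513 CPM in WT replicate 3 at 0 h, against medians of 7.49 CPM over KO and 8.42 CPM over WT libraries (range 2.02 to 626 in KO, 2.09 to 513 in WT). The sum of 13 lymphocyte and plasma cell markers was 1418 CPM in WT replicate 5 at 16 h, against medians of 38.2 CPM over KO and 40.0 CPM over WT libraries (range 16.4 to 77.9 in KO, 21.7 to 1418 in WT). None of the markers of either list had 0 counts in all. The next highest mitotic sum, 19.9 CPM in WT replicate 3 at 16 h, came with 130 CPM of granulocyte and 107 CPM of lymphocyte markers. After it came WT replicate 4 at 20 h, with a sum of 14.9 CPM and 64.6 CPM of granulocyte markers. High blood cell markers also stood beside mitotic sums within the range of the other mice. WT replicate 4 at 12 h had 176 CPM of granulocyte markers with a mitotic sum of 10.3 CPM. WT replicate 3 at 12 h had 361 CPM of lymphocyte markers with a sum of 11.8 CPM. WT livers of 12 h had 11 ± 1.4 CPM (SD, n = 4). The part of these cells in the mitotic levels was not tested. Without the 3 libraries with the highest mitotic sums, the filter kept 8 mitotic genes in place of 10. Of these, 8 of 8 had a negative difference across times, with a median of −0.37 over this smaller set. Other libraries with high markers, such as WT replicate 3 at 16 h, stayed in. Without the 3 libraries named in earlier work on these data for adrenal, pancreatic or Lepr transcripts, 9 of 11 were negative, with a median of −0.21. WT replicate 3 at 0 h belongs to both sets of 3 libraries, so these 2 settings are not independent.

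At single times the median rested on 1 library, which set its direction at 20 h and its size at 0 h and 16 h. At 20 h the median of the 10 mitotic genes was 0.50, with 1 of 10 negative, and without KO replicate 1 it was −0.31, with 7 of 8 negative. Mki67 had 7.74, 1.28, 1.93 and 0.999 CPM in KO livers at that time. At 0 h the median was −0.92, and without WT replicate 3 it was −0.30. Mki67 then had 0.974, 0.837, 0.610 and 1.09 CPM in KO livers, against 0.157, 0.326, 6.62 and 2.23 CPM in WT livers. At 16 h the median was −0.91, and without WT replicate 5 it was −0.58.

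**Figure D3:**
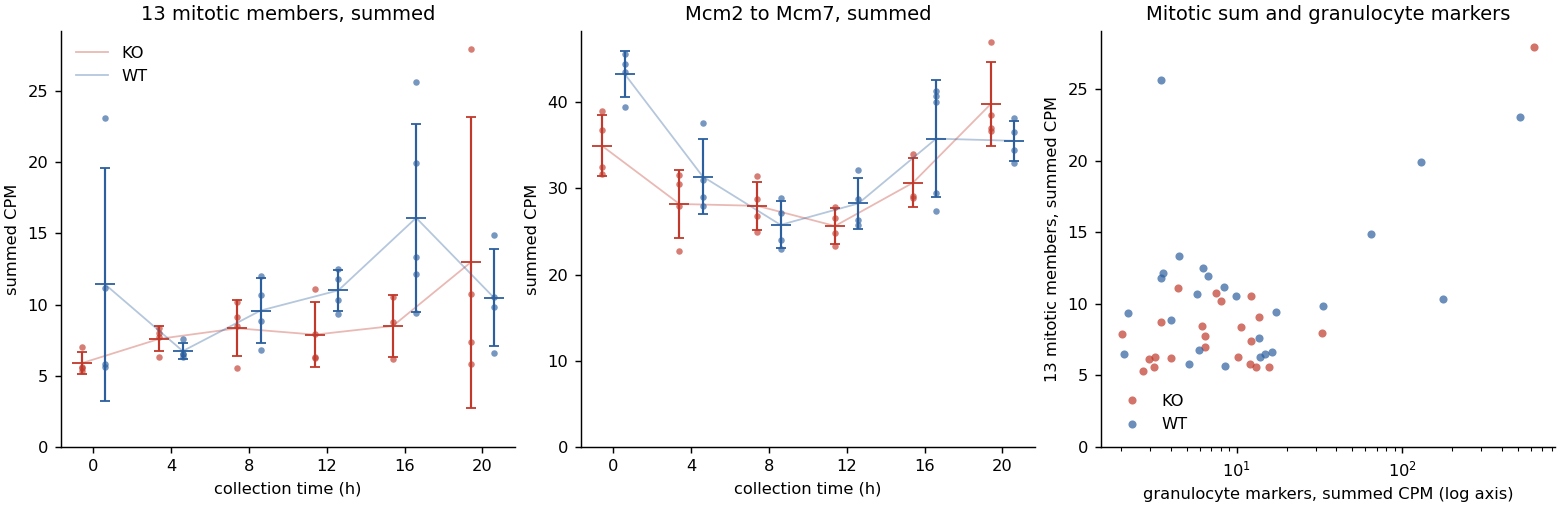
Summed CPM of the 13 mitotic genes and of the 6 MCM helicase genes in each library by time, KO left of WT, and the mitotic sum against the summed granulocyte markers on a log axis. The highest mitotic sums are 27.9 CPM in KO replicate 1 at 20 h, 25.6 CPM in WT replicate 5 at 16 h and 23.1 CPM in WT replicate 3 at 0 h.

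The mitotic promoters shown are those of Birc5 and Cdk1, the mitotic genes with the lowest p across times, as RefSeq windows of GRCm38.p6. The Birc5 window is chr11:117848987-117849286 on the + strand and held none of the motifs searched. The Cdk1 window is chr10:69352863-69353162 on the − strand, written in the direction of the gene, and its capitals mark 2 E2F matches, 2 CHR matches and 3 CCAAT boxes.
Birc5 promoter: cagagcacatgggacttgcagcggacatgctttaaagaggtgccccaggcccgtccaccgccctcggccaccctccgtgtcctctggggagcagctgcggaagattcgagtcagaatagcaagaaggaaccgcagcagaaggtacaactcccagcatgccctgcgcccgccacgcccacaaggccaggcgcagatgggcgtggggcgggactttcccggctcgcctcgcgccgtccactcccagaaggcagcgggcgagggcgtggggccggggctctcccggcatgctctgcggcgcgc
Cdk1 promoter: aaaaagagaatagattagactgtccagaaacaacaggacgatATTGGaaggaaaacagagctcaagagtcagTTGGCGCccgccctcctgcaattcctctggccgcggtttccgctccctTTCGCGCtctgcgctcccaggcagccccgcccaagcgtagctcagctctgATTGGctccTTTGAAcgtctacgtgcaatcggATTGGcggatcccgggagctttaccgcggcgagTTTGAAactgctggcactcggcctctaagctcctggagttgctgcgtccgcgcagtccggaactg

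The motifs searched on both strands were those of E2F, CHR, the CCAAT box and the E-box. The E2F site was read as TTCCCGC or else TTGGCGC or else TTCGCGC or else TTGCCGC in these exact letters. CHR, the element of DREAM and B-MYB complexes, was read as TTTGAA or else TTCGAA in these letters. The CCAAT box, bound by the factor NF-Y, was read as its name spells it, and the E-box, to which BMAL1 and CLOCK can bind, as CACGTG alone. RefSeq windows were present for 32 of the 40 genes (36 windows). An E2F match was found for 14 of 32 genes and in 16 of 36 windows, against 9.6% of all 32851 windows. Of the 5 MCM genes with a window 4 had one, and of the 11 mitotic genes 3 had one. A CHR match was found for 11 of 32 genes, against 19.2% of all windows, and 9 of these 11 genes were mitotic. A CCAAT box was found for 22 of 32 genes, against 37.4% of all windows, among them 10 of 11 mitotic and 5 of 5 MCM genes. The E-box was found for Cdk4, Lig1 and Tyms, against 7.2% of all windows. These counts describe letters in 300-base windows and were not tested.

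At the single times none of the 36 genes passed the adjusted threshold in edgeR, and none in DESeq2. The share of all genes that passed was 0.0147% at 0 h, 0.0366% at 4 h, 0% at 8 h, 0% at 12 h, 0.022% at 16 h and 0% at 20 h. The unadjusted counts differed between times. At 0 h 10 of 36 genes had an unadjusted p below 0.05 (27.8%), against 5.53% of all genes. Of these, E2f6 was higher, and Mcm3, Mcm5, Mcm6, Lig1, Rrm2, Ccna2, Birc5, Top2a and Mki67 were lower in KO livers. Without WT replicate 3 at 0 h the count was 4 of 35 (11.4%), against 3% of all genes. At 4 h the count was 7 of 36 (19.4%), against 23.3% of all genes, with Ccne2, E2f6, Mcm10, Pola1 and Tyms higher and Cdk2 and Mcm3 lower in KO livers. At 8 h it was 1 of 36 (2.78%), against 1.82% of all genes, and the gene was Pole. At 12 h it was 5 of 36 (13.9%), against 4.4% of all genes, with E2f6 higher and Ccnd3, Ccne1, Rrm2 and Cdk1 lower. At 16 h it was 5 of 36 (13.9%), against 6.65% of all genes, and Mcm6, Mcm10, Rrm2, Aurka and Top2a were all lower. At 20 h it was 2 of 36 (5.56%), against 1.84% of all genes, and both Mcm6 and Pole were higher in KO livers. Leaving out each library in turn moved these counts. At 0 h it was 6 of 36 without WT replicate 4, against 5.76% of all genes. At 4 h it was 12 of 36 (33.3%) without KO replicate 1, against 41.8% of all genes, and 2 of 36 (5.56%) without KO replicate 3, against 9.85%. It was 4 of 36 (11.1%) without KO replicate 4 or WT replicate 1, against 12.9% and 15.9%. At each of these 4 h settings the share in the set lay below that of all genes. At 8 h it was 5 of 36 (13.9%) without WT replicate 3, against 1.77%. At 12 h it was 2 of 36 (5.56%) without KO replicate 2 or 4, against 3.07% and 3.99%, and 3 of 36 (8.33%) without WT replicate 2, against 8.92%. At 16 h it was 11 of 37 (29.7%) without KO replicate 1, against 13.5%, 3 of 37 (8.11%) without KO replicate 2, against 10.8%, and 3 of 34 (8.82%) without WT replicate 5, against 5.56%. At 20 h it was 0 to 2 over all libraries left out, and 0 of 36 without KO replicate 2, against 2.61%.

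**Figure D4:**
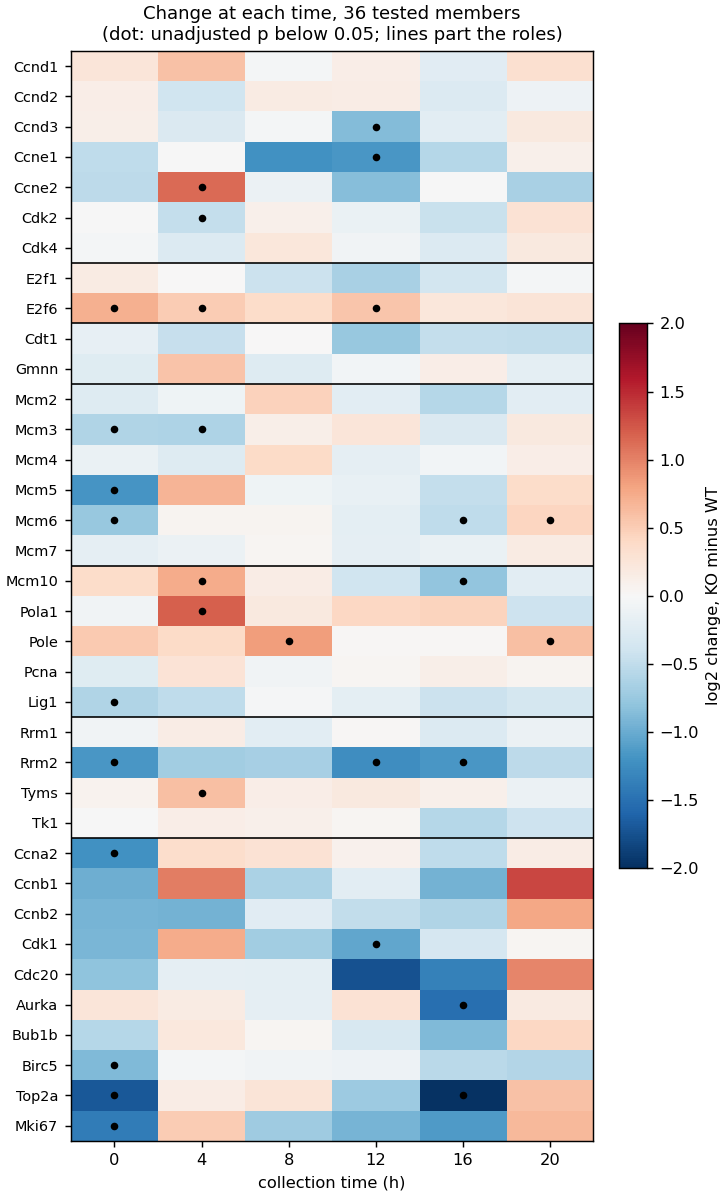
Log2 difference between KO and WT livers at each of the 6 times for the 36 tested genes, as a colour scale, with dots for an unadjusted p below 0.05. Rrm2 is negative and E2f6 positive in every column, while Mcm6 is −0.76 at 0 h and 0.43 at 20 h.

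The median difference of the 36 genes was −0.24 at 0 h, 0.13 at 4 h, −0.01 at 8 h, −0.18 at 12 h, −0.44 at 16 h and 0.14 at 20 h, while the median of all genes lay between −0.0146 and 0.00678 at each time. The difference was negative for 27 genes at 0 h, 15 at 4 h, 18 at 8 h, 24 at 12 h, 30 at 16 h and 14 at 20 h. A test of whether the difference changed with time called 1 of all genes (0.00733%) and none of the 36 in edgeR, nor any in DESeq2. At an unadjusted p below 0.05 it gave Mcm3, Mcm6 and Mcm10 (8.33%), against 3.28% of all genes. Mcm6 moved between −0.76 ± 0.21 at 0 h, −0.51 ± 0.22 at 16 h and 0.43 ± 0.21 at 20 h.

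Some genes had no overlap between the genotypes at a time, as read from scaled CPM for the set and for all genes. At 0 h Mcm3, Mcm6, Lig1, Rrm2 and Cdk1 were lower in every KO mouse (13.9%), against 1.77% of all genes, and none was higher in every KO mouse, against 1.88% of all genes. In unscaled counts, the highest KO and the lowest WT mouse tied for Lig1 (45 counts) and for Cdk1 (10 counts). At 4 h E2f6, Mcm10 and Tyms were higher in every KO mouse (8.33%), against 3.81% of all genes, and Ccnb2 was lower (2.78%), against 3.98%. Tyms then had 8.19, 10.1, 14.1 and 12.8 CPM in KO livers, against 7.44, 6.34, 8.15 and 7.82 CPM in WT livers. Its unscaled counts overlapped, with 105 in the lowest KO and 109 in the highest WT mouse. Ccnb2 had only 2 to 4 counts in KO and 5 to 8 counts in WT mice. At 8 h Mcm2 and Pole were higher (5.56%), against 0.879% of all genes, and none was lower, against 0.791%. For Pole the lowest KO and the highest WT mouse tied at 18 unscaled counts. At 12 h E2f6 was higher, against 1.35% of all genes, and Mki67 lower, against 1.9%. The Mki67 groups overlapped in unscaled counts, with 20 in KO replicate 1 and 19 in WT replicate 1. At 16 h Rrm2 was lower, against 0.594% of all genes, and none was higher, against 0.579%. At 20 h no gene of the set was separated, against 0.623% of all genes higher and 0.476% lower.

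The calls at 4 h depended on KO replicate 1. Without it 4 of the 36 genes passed at 4 h, namely E2f6, Mcm3, Pola1 and Tyms, and 3354 of all genes did, against 5 with it. The share of the set that passed in this setting was below the share of all genes.

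A daily rhythm, tested with a cosine and a sine term of 24 h per genotype, was found in 7 of 36 genes in KO livers (19.4%), against 17% of all genes, and in 10 of 36 in WT livers (27.8%), against 16.3%. In KO livers these were Ccnd1, Ccnd3, Mcm7, Mcm10, Tyms, Tk1 and Birc5. In WT livers they were Ccne1, Ccne2, E2f6, Mcm2, Mcm3, Mcm7, Mcm10, Rrm2, Tyms and Tk1. Mcm7, Mcm10, Tyms and Tk1 passed in both (11.1%), against 9.59% of all genes. The rhythm itself differed between genotypes for none of the 36 in edgeR or DESeq2 and for 0.00733% of all genes. At an unadjusted p the difference was below 0.05 for Mcm10 alone (2.78%), against 2.66% of all genes, so that genes which passed in only 1 genotype are not shown to differ between them.

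Mcm10 had the widest rhythm of the tested genes in KO livers. At 0 h it had 15.2, 23.5, 33.7 and 17.1 CPM in KO livers, against 23.4, 16.1, 13.1 and 17.1 CPM in WT livers. At 4 h it had 54.0, 69.2, 39.9 and 44.5 CPM in KO livers, against 31.1, 31.2, 32.7 and 28.8 CPM in WT livers. KO and WT mice overlapped at 0 h, and at 4 h every KO mouse was above every WT mouse. At 8 h it had 45.0, 73.9, 54.1 and 41.0 CPM in KO livers, against 49.7, 30.1, 66.6 and 46.8 CPM in WT livers. At 12 h it had 36.0, 39.4, 27.5 and 45.0 CPM in KO livers, against 33.9, 26.4, 45.4 and 88.3 CPM in WT livers. The genotypes overlapped at both times, and the highest WT mouse was at 12 h. At 16 h it had 21.5, 11.7 and 16.3 CPM in KO livers, against 27.2, 40.9, 14.4, 29.6 and 30.8 CPM in WT livers. At 20 h it had 19.6, 17.1, 11.6 and 16.1 CPM in KO livers, against 18.6, 20.5, 15.9 and 19.1 CPM in WT livers. Levels were low again in both genotypes by 20 h. The amplitude was 1.00 ± 0.11 on the log2 scale with a peak at 7.0 ± 0.4 h in KO livers (adjusted p = 3.35e-07), and 0.77 ± 0.12 with a peak at 9.7 ± 0.6 h in WT livers (adjusted p = 4.82e-06). The difference in rhythm had an unadjusted p of 0.000459 and an adjusted p of 0.783.

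Tyms peaked at 8.0 ± 0.9 h with an amplitude of 0.45 ± 0.10 in KO livers (adjusted p = 0.00206), and at 10.2 ± 0.9 h with 0.29 ± 0.07 in WT livers (adjusted p = 0.0435). Tk1 peaked at 12.4 ± 0.7 h with 0.72 ± 0.14 in KO livers (adjusted p = 0.000274), and at 14.1 ± 0.5 h with 0.84 ± 0.12 in WT livers (adjusted p = 9.47e-06). In both genotypes the thymidylate genes thus had their peaks in the middle of the collection, Tyms before Tk1. At 12 h Tk1 had 66.4, 92.4, 51.4 and 50.5 CPM in KO livers, against 64.8, 74.7, 63.8 and 50.9 CPM in WT livers, and at 0 h it had 21.1, 13.5, 34.9 and 22.9 CPM in KO livers, against 24.6, 25.1, 17.0 and 26.0 CPM in WT livers. The whole of Tk1, 10567 bases in mm9, lies within the span of Afmid on the opposite strand, the library kit does not keep strand, and Afmid averaged 192 CPM. Afmid peaked at 15.7 ± 1.1 h in KO and 16.3 ± 1.1 h in WT livers, and how many reads of Tk1 come from Afmid was not tested.

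Of the 6 helicase genes Mcm7 passed in both genotypes, Mcm2 and Mcm3 in WT livers alone, and Mcm4, Mcm5 and Mcm6 in neither. Mcm7 peaked at 21.5 ± 0.6 h with an amplitude of 0.37 ± 0.05 in KO livers (adjusted p = 0.000311), and at 21.7 ± 0.7 h with 0.34 ± 0.07 in WT livers (adjusted p = 0.000959). At 20 h Mcm7 had 24.6, 20.7, 24.2 and 22.1 CPM in KO livers, against 21.7, 20.3, 19.3 and 20.6 CPM in WT livers. At 8 h it had 15, 15.3, 11.6 and 17.0 CPM in KO livers, against 17.2, 13.6, 11.5 and 14.8 CPM in WT livers. All mice of both genotypes were higher at 20 h than any of them at 8 h. Mcm2 peaked at 0.2 ± 1.3 h with 0.41 ± 0.13 in KO livers (adjusted p = 0.0559) and at 21.9 ± 0.8 h with 0.61 ± 0.13 in WT livers (adjusted p = 0.00454). Mcm3 peaked at 20.3 ± 1.4 h with 0.25 ± 0.09 in KO livers (adjusted p = 0.175), and at 23.2 ± 0.9 h with 0.45 ± 0.11 in WT livers (adjusted p = 0.00462). Mcm10 had its peak at times when Mcm7 was low. Overlaps of 53 to 1439 bases with a gene on the other strand concern Ccnd1, Ccnd3, Cdk4, Mcm7, Lig1, Ccna2 and Cdc20, and Ccnd2 overlaps a gene of unlisted strand. The other gene averaged 305 CPM for Cdk4 (45.0 CPM) and 131 and 10.6 CPM for the overlaps of Mcm7 (18.2 CPM). It averaged 4.83 CPM for Lig1 (3.26 CPM), 19.6 CPM for Ccna2 (1.00 CPM) and 25.0 CPM for Cdc20 (0.284 CPM). For Ccnd1 (39.4 CPM) it was 15.4 CPM, and for Ccnd3 (35.4 CPM) 9.68 CPM. How many reads come from the other gene was not tested.

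Ccne1 in WT livers peaked at 11.4 ± 1.0 h with an amplitude of 0.74 ± 0.20 (adjusted p = 0.00884) and in KO livers had 0.24 ± 0.19 (adjusted p = 0.401). At 12 h Ccne1 had 1.21, 0.583, 0.0806 and 0.450 CPM in KO livers, against 2.46, 1.65, 0.750 and 0.416 CPM in WT livers, which overlap, and without WT replicate 1 at 12 h the WT call was lost (adjusted p = 0.0506). Ccne2 peaked at 12.0 ± 1.3 h with 0.54 ± 0.17 in KO livers (adjusted p = 0.175), and at 14.6 ± 1.1 h with 0.72 ± 0.20 in WT livers (adjusted p = 0.00673). Of the 13429 bases of Ccne2, 5622 overlap Ints8 on the other strand, which averaged 20.4 CPM, against 1.45 CPM for Ccne2, and how many reads of Ccne2 come from Ints8 was not tested. Birc5 peaked at 11.9 ± 1.0 h with 0.65 ± 0.16 in KO livers (adjusted p = 0.0198), and at 13.9 ± 1.1 h with 0.47 ± 0.13 in WT livers (adjusted p = 0.0722). Ccnd1 peaked at 5.5 ± 1.2 h with 0.73 ± 0.23 in KO livers (adjusted p = 0.0493), and at 6.9 ± 1.1 h with 0.54 ± 0.16 in WT livers (adjusted p = 0.0858). Ccnd3 in KO livers had 0.51 ± 0.16 with a peak at 21.2 ± 1.2 h (adjusted p = 0.0482), against 0.25 ± 0.17 in WT livers (adjusted p = 0.554). The rhythm of Rrm2 had an adjusted p of 0.178 in KO and 0.0395 in WT livers, and that of E2f6 0.115 in KO and 0.0437 in WT livers. The calls near the threshold were unstable, as Ccnd1 was lost in 38 and Ccnd3 in 39 of 56 alternatives in KO livers, and E2f6 in 23, Rrm2 in 16 and Tyms in 13 in WT livers.

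**Figure D5:**
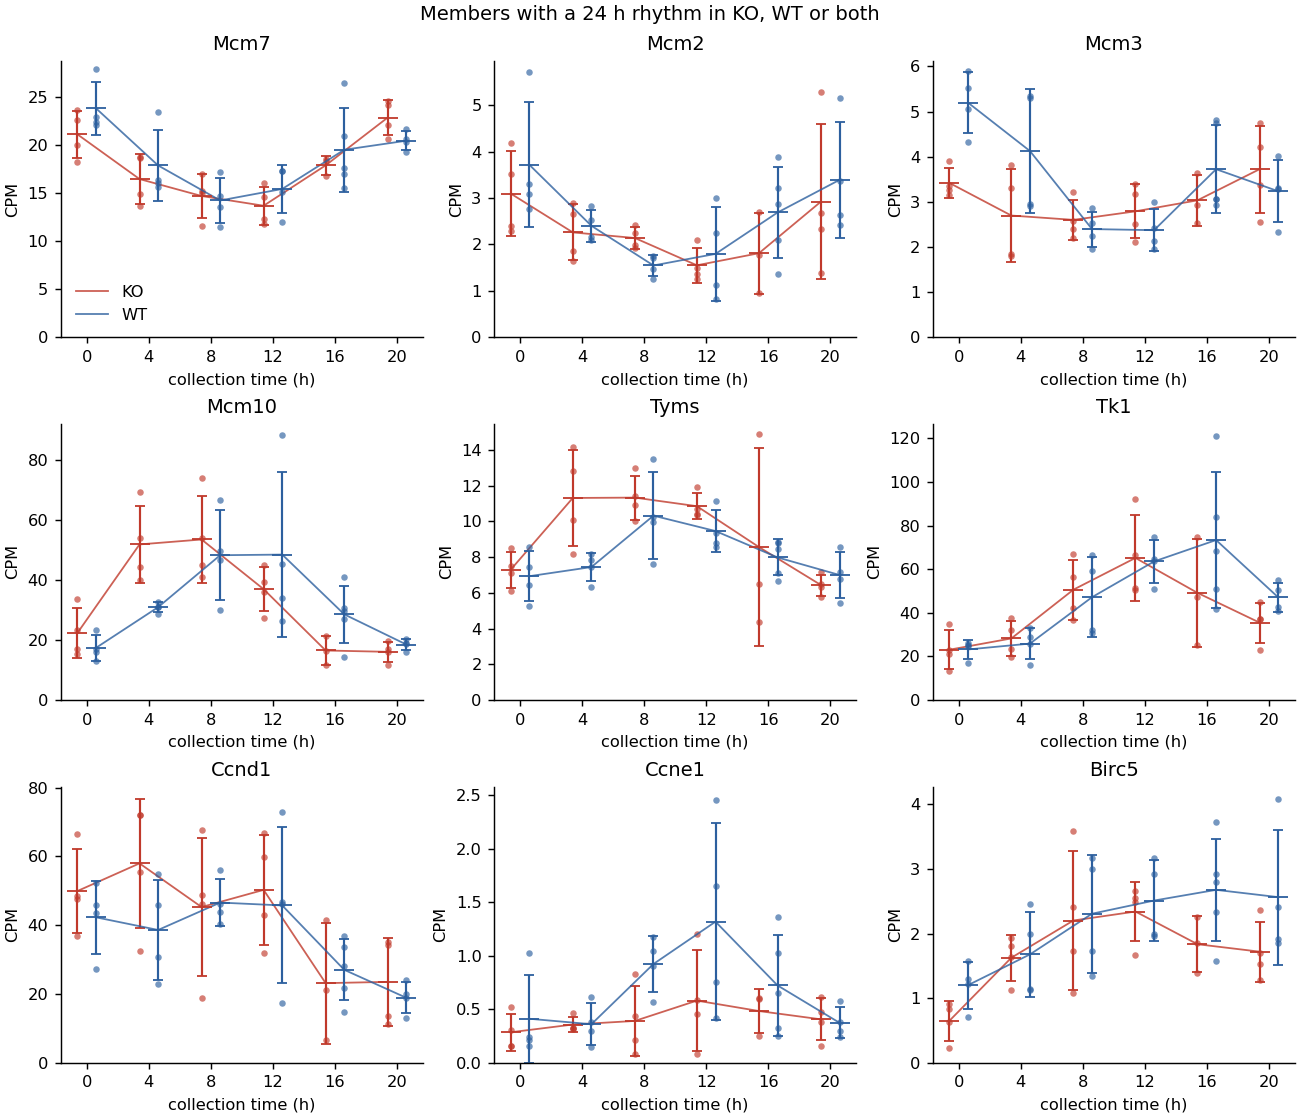
CPM of Mcm7, Mcm2, Mcm3, Mcm10, Tyms, Tk1, Ccnd1, Ccne1 and Birc5 in each library against collection time in h, with KO and WT points and lines through the group means. Mcm10 peaks at 7.0 h in KO and 9.7 h in WT livers, while Mcm7 peaks at 21.5 h in KO and 21.7 h in WT livers.

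Within groups the 40 genes did not vary as 1 block. Pearson correlations of their deviations from the group means over the 48 libraries had a median of 0.09 over all 780 pairs, as a description of libraries that share depth and scaling. The 78 pairs of mitotic genes had a median of 0.28 (range −0.14 to 0.77), and the 15 pairs of helicase genes 0.21. The highest pairs were Mki67 with Top2a at 0.77 and Ccnb1 with Top2a at 0.73, followed by Ccnd3 with Cdk4 at 0.71 and Gmnn with Pcna at 0.69. Ccnd3 with Pola1 was the lowest at −0.83. Rrm2 had a median of 0.07 with the mitotic genes and 0.02 with the helicase genes, and E2f6 had −0.04 with the other 39 genes.

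Genes outside the set but of the same pathways were read from lists of known roles. Of 40 tested replication factors none passed across times in edgeR, 6 had an unadjusted p below 0.05 (15%, against 17.1% of all genes), and 1 passed in DESeq2. That gene was Chaf1b, a histone chaperone subunit at the fork, with −0.55 ± 0.15 in edgeR (adjusted p = 0.0574). The next by p were Mcm8 at 0.34 ± 0.13, Rfc4 at 0.30 ± 0.13 and Orc5 at 0.22 ± 0.10. Of 12 nucleotide supply genes none passed in either tool and 1 had an unadjusted p below 0.05 (8.33%), the dUTPase gene Dut at 0.26 ± 0.11, with Umps and Shmt1 among the genes after it. Of 29 mitosis and cytokinesis genes none passed in either tool, 7 had an unadjusted p below 0.05 (24.1%) and 21 had a negative difference (72.4%, against 51.1% of all genes). The lowest p there belonged to Ect2, the exchange factor of the cleavage furrow, with 0.66 ± 0.21 (adjusted p = 0.0954), and to the phosphatase gene Cdc25b, with −0.48 ± 0.16 (adjusted p = 0.133), followed by Mad2l1 at 0.36 ± 0.14 and Anln at −0.41 ± 0.17. Of 19 E2F, RB and DREAM regulators none passed in either tool and 2 had an unadjusted p below 0.05 (10.5%), E2f2 at −0.65 ± 0.29 and Mycn at −0.77 ± 0.38, with E2f7 and Tfdp1 after them. Of 20 CDK inhibitors and checkpoint genes none passed in either tool and 3 had an unadjusted p below 0.05 (15%). These were Cdk6 at 0.29 ± 0.12, the CDK inhibitor gene Cdkn1a at −0.65 ± 0.26 and its relative Cdkn1c at 0.23 ± 0.10, with Cdk7 after them. Of 8 histone genes Hist2h3c1, an H3 gene, rose in both tools (0.66 ± 0.16, adjusted p = 0.028 in edgeR), a call lost in 6 of 56 alternatives, and the other 7 did not pass. Of the 8, 3 had an unadjusted p below 0.05 (37.5%, against 17.1% of all genes), namely Hist2h3c1, Hist1h4i and H1f0. The libraries were made from poly-A RNA, and how far this captures histone transcripts was not tested.

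Rhythms in these lists were read against 17% of all genes in KO livers, 16.3% in WT livers and 9.59% in both. Of the 40 replication factors 4 passed in KO and 4 in WT livers (10% each), and of the 29 mitosis genes 2 (6.9%) in KO and 3 (10.3%) in WT livers. Of the 12 nucleotide supply genes it was 2 (16.7%) in KO and 1 (8.33%) in WT livers, of the 19 E2F and RB regulators 4 (21.1%) in KO and 6 (31.6%) in WT livers, and of the 8 histone genes 4 (50%) in KO and 5 (62.5%) in WT livers. Of the 20 CDK inhibitors and checkpoint genes, 6 passed in KO and 6 in WT livers (30% each), the same 6 in both. No test of these shares was made. Cdkn1a had an amplitude of 2.18 with a peak at 20.1 h in KO livers, and 1.94 with a peak at 20.3 h in WT livers. Wee1, the kinase that holds CDK1 inactive and a known clock target, had 1.49 with a peak at 11.6 h in KO livers, and 1.2 with a peak at 12.4 h in WT livers. The atypical cyclin gene Ccng2 had 0.79 with a peak at 18.5 h in KO livers, and 0.86 with a peak at 19.4 h in WT livers. Cdkn2c, Atr and Cdk6 were the other genes of this list. Of the replication factors Gins1 passed in both genotypes, of mitosis Ccnf, of the E2F and RB list E2f7, E2f8 and Mycl1, and of the histones Hist1h1c, Hist2h3c1 and H1f0.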

How the data were processed

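Poly-A RNA of 48 livers was made into libraries with a TruSeq kit that does not keep strand and sequenced on a HiSeq 2000, per the labels' protocols. The authors deposited unscaled whole-number counts of reads on 22354 genes. CASAVA, STAR 2.4.1d and the build mm9 are named in the submitters' processing notes, while no counting rule is described in the sources used here. The name of the deposited counts holds the words MIN and sense, which these sources do not explain. How sense was assigned with a kit that does not keep strand was not resolved here. No column belonged to other samples (0). The library totals, near-equal at about 12929297 counts (median without Alb), set a floor of 3 counts, or 0.232 CPM, which covers counting error only.

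The members and gene lists were chosen with earlier results of these data known. In R 4.3.3, edgeR 4.0.16 fitted 12 group means to 13646 genes kept by filterByExpr (minimum count 10, minimum total 15), with TMM scaling and Alb left out, and glmQLFTest gave p-values adjusted by Benjamini-Hochberg over all genes, with a threshold of 0.05. KO minus WT was averaged over the 6 times, taken at each time, and tested for a change with time (5 df). Rhythms were tested with a 24 h harmonic per genotype (2 df). Amplitudes and peaks came from least squares on log2 CPM (prior count 2), and SEs of log2 differences from the test's F. CPM are not per length, so levels of different genes are not compared. The scripts were tested on simulated data. DESeq2 1.42.0, other scalings and filters, and libraries left out were the alternatives.

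Named in full were the genes past the threshold in any comparison and the 6 with the lowest p across times, and of other lists the genes past the threshold across times or with rhythms in both genotypes and the 4 with the lowest p. Of these, 1 gene is not reported here. KO and WT mice of 1 time share replicate numbers, but of 23 such pairs only 13 correlated above 0.1 over 2000 genes (range −0.449 to 0.604), and at no time all of them, so the numbers were not taken to pair the mice. The lowest chi-square per df between libraries of a group was 20.7, so none was a repeat.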

Additional observations from a re-analysis of the deposited data

Results flagged for a closer look

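In 8 of 187 sets of 4 or 5 mice, 1 mouse stood apart from the others of its group by Dixon's criterion, which chance alone gives in about 1 of 20. Rrm2 was at 12.3 CPM in WT replicate 2 at 0 h, with the other mice at 4.25 to 5.12 CPM, and at 8.86 CPM in WT replicate 2 at 4 h, with the others at 2.84 to 3.45 CPM. These are different mice with the same replicate number, and whether they share more is not given in the labels. Mcm7 was at 28.0 CPM in WT replicate 1 at 0 h (others 22.1 to 22.9) and at 23.5 CPM in WT replicate 1 at 4 h (others 15.7 to 16.4). Ccne1 was at 1.02 CPM in WT replicate 3 at 0 h (others 0.157 to 0.245), a library with 513 CPM of granulocyte markers. It was also at 0.464 CPM in KO replicate 4 at 4 h (others 0.312 to 0.329). That is 6 counts against 4 in each of the others, all near the floor of 3 counts. Tk1 was at 17.0 CPM in WT replicate 3 at 0 h (others 24.6 to 26.0). The mitotic sum was at 7.59 CPM in WT replicate 1 at 4 h (others 6.31 to 6.51).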

How the results depend on the processing

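Rrm2 and E2f6 passed across times under all 56 alternatives, and no named result changed sign while past the threshold. Of 60 named differences across times 7 changed their call, of 36 rhythms in KO livers 6 and in WT livers 11. The number of all genes past the threshold across times was 191, against 356 with DESeq2, 122 with no filter, 303 without the 3 libraries with adrenal, pancreatic or Lepr transcripts and 127 with the replicate block. The share of higher calls was 44.5%, against 33.9% with the block (43 higher, 84 lower) and 32.3% without KO replicate 3 at 16 h. At 0 h the count of 2 became 5 with DESeq2's size factors, 11 with DESeq2, 7 with the 0.1 CPM filter, 10 with no filter, 8 without the adrenal, pancreatic or Lepr libraries, 1 without both 16 h groups, and 0 with the replicate block, with the groups of 0 h alone or without the 3 libraries highest in blood cell markers (an alternative added after seeing the data). At 4 h the count of 5 became 192 with DESeq2, 2 with no filter, 8 without the adrenal, pancreatic or Lepr libraries, 543 without the 16 h groups (with Tyms, 1 gene of the set, among them), 2 with the block and 0 with the groups of 4 h alone. At 8 h DESeq2 gave 2 in place of 0, and at 12 h DESeq2 gave 3, no filter 1 and leaving out 16 h 1 in place of 0. At 16 h the count of 3 became 17 with DESeq2 and 0 with either filter change, without the adrenal, pancreatic or Lepr libraries, with the block, with the groups of 16 h alone and without the libraries highest in blood cell markers. The interaction count of 1 became 11 with DESeq2, and 0 without the adrenal, pancreatic or Lepr libraries and with the block. The rhythm difference count of 1 became 5 with DESeq2 and 0 with the block, and the 7 rhythmic genes of the set in KO livers became 4 without the adrenal, pancreatic or Lepr libraries. The causes of these moves were not tested. Leaving out each library in turn gave 99 to 484 genes across times (2 to 4 of the set), 0 to 9 at 0 h, 0 to 3354 at 4 h (0 to 4 of the set), 0 to 1 at 8 h, 0 to 2 at 12 h, 0 to 25 at 16 h, 0 to 3 for the interaction, 1628 to 3691 for rhythms in KO livers and 1 to 2 for the rhythm difference. The extremes across times were without KO replicate 3 at 16 h (99) and without KO replicate 1 at 4 h (484). The median of all genes moved by less than 0.1 on the log2 scale in every setting. Depth limits the mitotic genes most, since several lie near the floor of 0.232 CPM.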
